A study of Mus musculus with 2 samples.

Results

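The immediate early AP-1 and Egr genes described here are Fos, Fosb, Fosl2, Jun, Junb, Jund, Egr1, Egr2, Ier2 and Atf3. These 10 genes were chosen by symbol, with earlier results of these data known. All 10 were listed among the 24346 symbols measured in both libraries. RNA-seq was performed on GFP+CD4+ cells, that is Tregs, sorted from the spleen and from the lung of Foxp3-DTR-GFP (FDG) mice on day 15 after intratracheal bleomycin (BLM). FDG mice carry the diphtheria toxin receptor and GFP under control of Foxp3, so that GFP marks cells that use this gene. The mice were 10 to 16 weeks old and each received 50 µg of BLM, a drug that injures the lung and leads to fibrosis. Both tissues came from BLM-treated mice, cells of 3 mice were pooled for each library, and each tissue had 1 library. An untreated lung was not analysed here, so tissue and injury cannot be told apart. The lung was digested with enzyme for 1 h at 37°C before sorting. How the spleen was prepared is not given in the sources used here, so digestion and tissue cannot be told apart either.

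AP-1 is a family of transcription factors that bind DNA as pairs of leucine zipper proteins, in which a Jun protein joins another Jun protein, a Fos protein or an Atf protein. Egr proteins bind GC-rich sites through zinc fingers. Immediate early genes are transcribed within minutes of a signal without new protein synthesis, largely through MAP kinases, serum response factor and CREB. In T cells they respond to the antigen receptor, and in many cell types to stress and to warm enzymatic digestion of tissue.

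The values are FPKM, fragments per kilobase of transcript scaled to the number of mapped reads, so that levels of different genes may be set side by side within a library. The reads behind each value were estimated from transcript lengths, at about 9.65e+06 reads for the spleen library and 1.26e+07 for the lung library. Intervals are 95% and cover counting error only, since mice were pooled and PCR copies are not independent molecules. No p-value was computed, because there are no replicates. Foxp3 was 18.7 FPKM in spleen and 41.8 FPKM in lung, Cd4 was 195 and 179 FPKM, and Cd3e was 513 and 369 FPKM, so the defining T cell and Treg markers were present in both libraries. All 12 macrophage markers were also higher in lung, 9 of them over 2-fold, beside 17.8% of all genes at 1 FPKM or more. None was at 0, and their summed level was 775 FPKM (spleen) and 26663 FPKM (lung). Lyz2, the lysozyme of myeloid cells, gave 24947 FPKM of the lung sum. The part of these cells in the values that follow was not tested, and in bulk RNA fewer cells of a type and less RNA per cell cannot be told apart.

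Among the 10 genes, Fosl2 and Atf3 stood far higher in lung Tregs than in splenic Tregs, Egr1 stood lower, and the other 7 differed by less than 2-fold. Fosl2 was 28.3-fold higher and Atf3 15.4-fold higher in lung, whereas Egr1 was 2.86-fold lower. The genes with the most RNA, Junb, Fos and Ier2, were the 3 highest, in that order, in both libraries. All 10 genes reached 1 FPKM in their higher library, the level from which ratios were counted, and 7 reached 50 FPKM. By count, 2 of the 10 were over 2-fold higher in lung, beside 17.8% of the 12094 genes at 1 FPKM or more, and 1 was over 2-fold lower, beside 15.5%. Rescaling both libraries to TPM, which equalises their sums, changed those shares of all genes to 13.1% higher and 25.9% lower. Among the 2535 genes at 50 FPKM or more, 14.3% were over 2-fold higher and 3.98% over 2-fold lower. Atf3 and Egr1 are in that class and lie past 2-fold. The median log2 ratio of lung to spleen was 0.09 over the 10 genes and 0.03 over all genes counted. The median size of the log2 ratio without regard to sign was 0.59 over the 10 genes and 0.63 over all genes counted. The typical size of the difference was thus close to that of all genes counted, while Fosl2 and Atf3 lay in the upper end of the distribution.

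**Figure D1:**
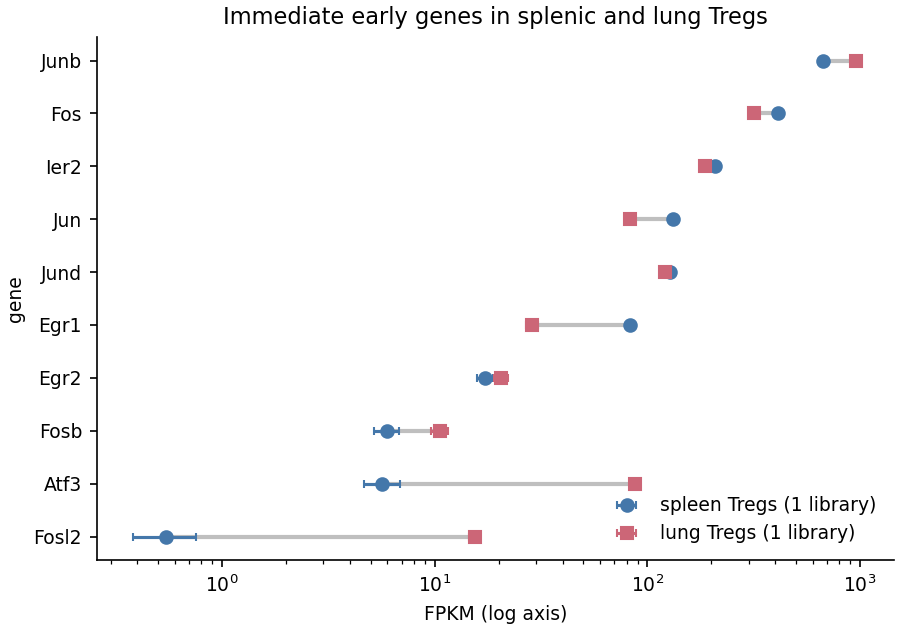
FPKM on a log axis of the 10 genes in the spleen library and the lung library, 1 pooled library each, with bars for the 95% counting interval. Junb lies highest in both libraries (671 and 959 FPKM), and Fosl2 moves from 0.546 to 15.4 FPKM.

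**Figure D2:**
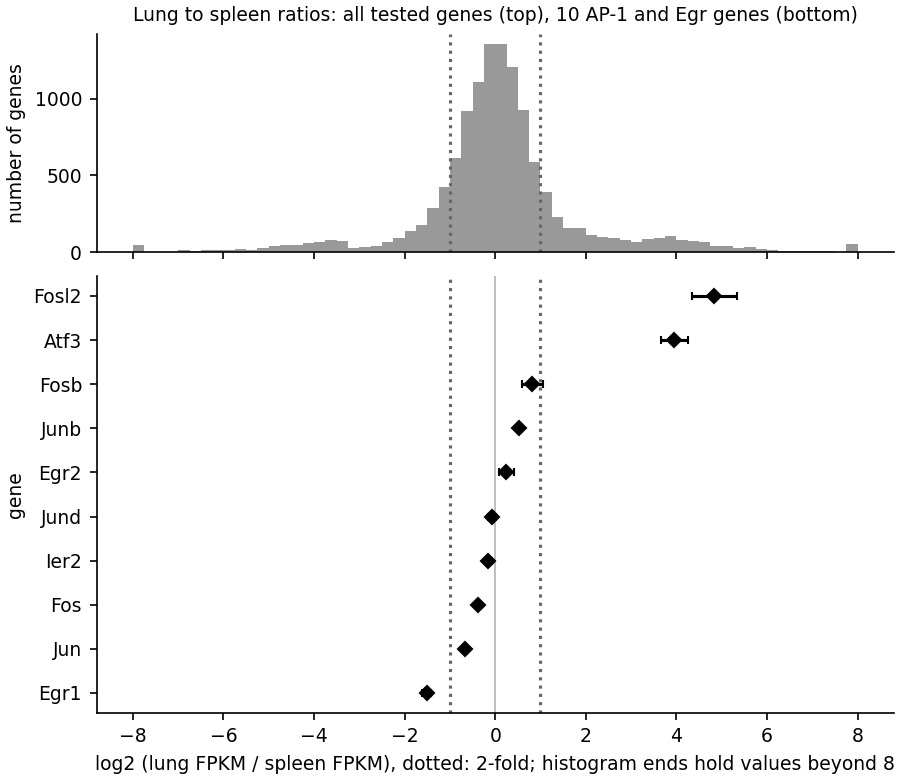
The upper panel is a histogram of the log2 ratio of lung to spleen FPKM over all 12094 genes at 1 FPKM or more, and the lower panel gives the ratio of each of the 10 genes with its 95% counting interval. Fosl2 (4.82) and Atf3 (3.95) lie to the right of the dotted 2-fold line and Egr1 (-1.52) to the left.

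The sequences before a RefSeq transcription start are shown for Fos, which kept a high level in both tissues, and for Atf3. Atf3 differed most among the genes with over 50 FPKM. RefSeq promoters were found for 8 of the 10 genes, all but Egr1 and Ier2. The 250 bases before the start are given 5′ to 3′ on the strand of the gene, in GRCm38.p6, with the letters TGACGT of either strand and the TATA box in capitals. TGACGT is the core of the cAMP response element (CRE, TGACGTCA), and it was chosen after the sequences had been seen. The Fos window is chr12:85473640-85473889 on the plus strand. The Atf3 window is chr1:191183334-191183583 on the minus strand, where the last 7 bases are exonic in a GENCODE transcript. This Atf3 start lies inside the annotated gene (191170296 to 191218039), so the window is not the sequence before the outermost 5′ end of Atf3.
Fos: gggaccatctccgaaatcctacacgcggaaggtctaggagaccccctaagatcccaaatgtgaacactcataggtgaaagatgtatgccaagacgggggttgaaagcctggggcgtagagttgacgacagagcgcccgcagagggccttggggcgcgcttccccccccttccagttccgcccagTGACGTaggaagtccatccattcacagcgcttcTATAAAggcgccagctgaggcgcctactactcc
Atf3: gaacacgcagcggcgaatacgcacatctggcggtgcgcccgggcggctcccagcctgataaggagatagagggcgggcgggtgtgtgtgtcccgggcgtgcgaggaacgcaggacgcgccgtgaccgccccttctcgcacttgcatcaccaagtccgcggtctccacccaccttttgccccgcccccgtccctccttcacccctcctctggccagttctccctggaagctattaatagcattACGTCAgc

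The Fos sequence holds TGACGT at 66 to 61 bases and TATAAA at 33 to 28 bases before the start. The Atf3 sequence holds ACGTCA, its reverse complement, at 8 to 3 bases before the start inside the gene, and no TATAAA. Among the other genes, TGACGT is in the windows of 3 of the 5 starts of Egr2, which overlap. On either strand, TGACGT is found in 6.47% of the 32851 promoters of that length and TATAAA in 12.4%. The full CRE is found in 1.55% of promoters and the AP-1 site TGANTCA in 6.75%. Neither exact sequence is in the window of any of the 8 genes, and near matches other than TGACGT were not sought. The Jund window ends well before the annotated start of the gene, and the Fosl2 window lies inside the gene. Both are therefore not the bases next to the outermost annotated start. A CArG box, the site of serum response factor, is found in 1.47% of promoters, and among the 8 genes it is in the windows of 4 of the 5 starts of Egr2, which overlap in part. These 4 windows lie inside the gene, and the window of the outermost start (67535249 to 67535498) holds neither a CArG box nor TGACGT. Bases farther than 250 before a start were not searched, and Egr1 and Ier2 had no window. The sites given here are matches of letters and not measurements of binding.

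Among the 8 genes with a RefSeq promoter, which leaves out Egr1 and Ier2, only Fosb and Fosl2 held the Egr site GCGNGGGCG. The site is in 4.70% of promoters and had the same letters in both. It is shown in capitals with 10 bases on either side, at chr7:19310077-19310105 on the minus strand for Fosb and at chr5:32136383-32136411 on the plus strand for Fosl2. The Fosl2 stretch is exonic in a GENCODE transcript.
Fosb: tgacgcaagcGCGGGGGCGggtcccggag
Fosl2: ccggctgcgcGCGGGGGCGgaagggcgcg

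Within the Fos family, the 4 genes differed in the direction and in the size of their ratio. Fos (chromosome 12, 85473890 to 85477273, plus strand), the founding partner of Jun, was 411 FPKM in spleen and 316 FPKM in lung. It was 1.30-fold lower in lung (1.26 to 1.34), resting on about 8087 and 7068 reads, and ranked 229 and 404 among all genes. Fosb (chromosome 7, 19302696 to 19310051, minus strand), a close relative of Fos, was 5.97 and 10.5 FPKM, which is 1.77-fold higher in lung (1.5 to 2.08). Fos was thus lower and Fosb higher in the lung library, each by less than 2-fold.

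Fosl2 (chromosome 5, 32135801 to 32157842, plus strand), which encodes Fra-2, a Fos protein without the strong activation domain of Fos, was 0.546 FPKM in spleen and 15.4 FPKM in lung. It was the lowest of the 10 genes in the spleen library, where its value rests on about 36 reads, against about 1149 in lung. The ratio was 28.3-fold (20.3 to 40.6), a log2 ratio of 4.82, and 2.16% of the genes counted had a higher one. Fosl2 was also the only 1 of the 10 genes over 20-fold higher, beside 3.27% of all genes counted. With 1 FPKM added to both values the ratio was 10.6-fold, because the spleen level lies under 1 FPKM. Fosl1, the remaining gene of the family, is listed at 0 in spleen and was 0.568 FPKM in lung.

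In summed FPKM the Fos family was 417 in spleen and 343 in lung, 1.22-fold lower in lung. Fos made up 98.4% of that sum in spleen and 92.3% in lung. The share of Fosl2 was 0.131% and 4.50%, and that of Fosb 1.43% and 3.08%. Fos exceeded Fosl2 752-fold in spleen and 20.5-fold in lung. Such ratios within a library do not depend on how the libraries are scaled to each other.

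**Figure D3:**
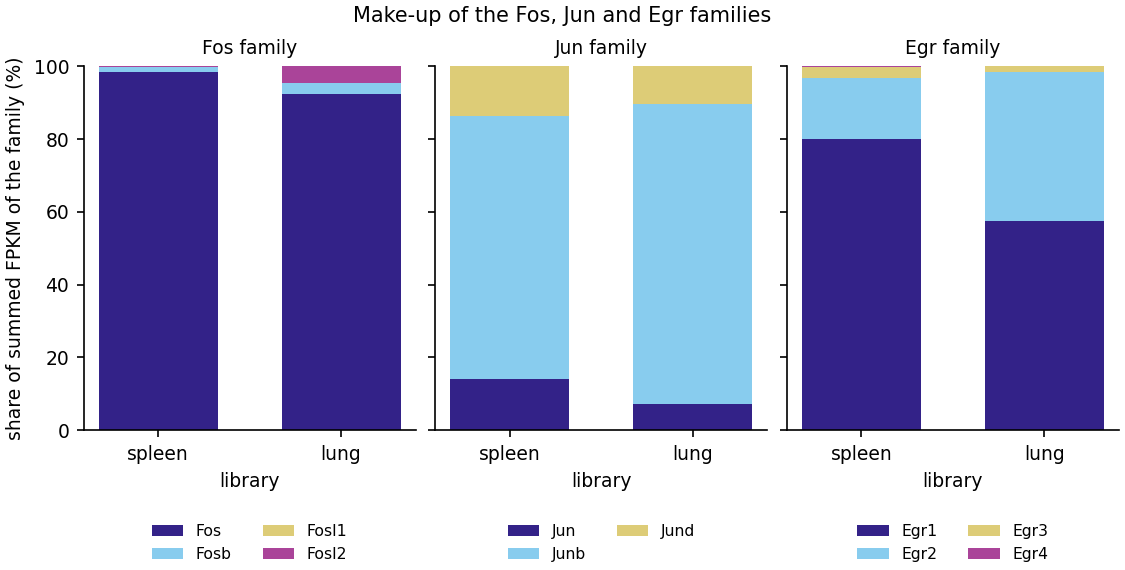
Percent of the summed FPKM of the Fos, Jun and Egr families held by each gene, with 1 bar per library that starts at 0. Junb takes 72.1% of the Jun family in spleen and 82.5% in lung, and Egr1 takes 80.1% and 57.5% of the Egr family.

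The Jun family was dominated by Junb in both tissues, and more so in lung. Junb (chromosome 8, 84974484 to 84978718, minus strand), a Jun protein that restrains the activity of Jun and pairs with Batf in T cells, was 671 FPKM in spleen and 959 FPKM in lung, 1.43-fold higher in lung (1.40 to 1.46). It ranked 134 and 132 among all genes. Jun (chromosome 4, 95049034 to 95052222, minus strand), which encodes c-Jun, was 132 and 82.6 FPKM, 1.60-fold lower in lung (1.52 to 1.67). Junb and Jun therefore differed in opposite directions, and the ratio of Junb to Jun was 5.09 in spleen and 11.6 in lung.

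Jund (chromosome 8, 70698949 to 70700616, plus strand), the Jun gene that many resting cells keep on, was 128 FPKM in spleen and 121 FPKM in lung. Its ratio was 1.05-fold lower in lung with an interval of 0.988 to 1.12, so a difference was not detectable at this depth. The exons of Jun share 232 bases with the opposite-strand gene Junos and those of Jund share 877 bases with the opposite-strand gene Gm11175. The kit does not mark the strand, and reads of the partners cannot be told apart there. The summed Jun family was 930 FPKM in spleen and 1163 FPKM in lung, 1.25-fold higher in lung, and the ratio of Fos family to Jun family FPKM was 0.448 and 0.295.

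Atf3 (chromosome 1, 191170296 to 191218039, minus strand), a stress-induced leucine zipper factor that pairs with Jun proteins and often acts as a repressor, was 5.67 FPKM in spleen and 87.7 FPKM in lung. The ratio was 15.4-fold (12.7 to 19.0), a log2 ratio of 3.95, on about 104 and 1832 reads, and 4.15% of the genes counted had a higher one. Atf3 held the 9th place among the 10 genes in spleen, where it was level with Fosb within counting error, and the 5th in lung, level with Jun. Among all genes it ranked 8001 in spleen and 1369 in lung.

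The Egr genes differed from each other as well. Egr1, an early zinc finger factor induced by MAP kinase signalling, was 82.5 FPKM in spleen and 28.8 FPKM in lung. This was 2.86-fold lower in lung (2.65 to 3.09), a log2 ratio of -1.52, and 9.50% of the genes counted had a lower one. Egr2 (chromosome 10, 67535475 to 67542188, plus strand), which restrains T cell activation and is linked to anergy, was 17.2 and 20.5 FPKM, 1.19-fold higher in lung (1.05 to 1.34), but 0.19 lower on the log2 scale after rescaling to TPM. The level of Egr1 over that of Egr2 was 4.78 in spleen and 1.41 in lung. Egr1 held 80.1% of the summed family FPKM in spleen and 57.5% in lung, while Egr2 held 16.8% and 40.8%. The sum itself was 103 and 50.1 FPKM, 2.05-fold lower in lung.

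Ier2 (chromosome 8, 84661331 to 84662852, minus strand), a small nuclear protein of the immediate early response outside both families, was 209 FPKM in spleen and 187 FPKM in lung. It was 1.11-fold lower in lung (1.06 to 1.17). With T cell genes set to a median ratio of 1, the log2 ratios of Ier2 (0.05) and Jund (0.13) turned to the other side of 0.

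In order of level, the spleen library ran Junb, Fos, Ier2, Jun, Jund, Egr1, Egr2, Fosb, Atf3 and Fosl2. The lung library ran Junb, Fos, Ier2, Jund, Atf3, Jun, Egr1, Egr2, Fosl2 and Fosb. Counting intervals of neighbours overlapped for Jun with Jund and Fosb with Atf3 in spleen, and for Atf3 with Jun in lung. The sum over the 10 genes was 1661 FPKM (spleen) and 1829 FPKM (lung), 1.10-fold higher, or 0.277% and 0.226% of all FPKM.

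The partners of these genes were examined next. Among 18 other leucine zipper factors related to AP-1, 15 reached 1 FPKM. Of these, 5 were over 2-fold higher in lung, beside 17.8% of all genes counted, and 2 over 2-fold lower, beside 15.5%. The other 8 lay within 2-fold, and the median log2 ratio was 0.10. Batf, which pairs with Junb and is needed for effector Tregs in tissues, was 117 FPKM in spleen and 244 FPKM in lung. Jdp2, a Jun-binding repressor, was 3.16 and 11.3 FPKM, and Ddit3, the stress factor CHOP, was 35.1 and 75.7 FPKM. The lower end among genes at 10 FPKM or more held Atf7 (11.4 and 7.07 FPKM), Atf2 (21.2 and 13.5 FPKM) and Atf4 (88.1 and 90.9 FPKM). Named after their values were seen, Batf3 was 3.83 FPKM in spleen and is listed at 0 in lung, and Bach2, a repressor that competes with AP-1 in T cells, was 8.85 and 2.01 FPKM. Junb exceeded Batf 5.71-fold in spleen and 3.93-fold in lung, and the ratio of Jun to Batf was 1.12 and 0.338.

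Of Egr3, Egr4 and the Nab corepressors, which bind Egr proteins and restrain them, 3 of 4 reached 1 FPKM. Nab2, itself an Egr target, was 17.5 FPKM (spleen) and 7.89 FPKM (lung), and Nab1 was 27.7 and 25.6 FPKM. Egr3, named after its values were seen, was 3.01 and 0.852 FPKM. Thus 2 of the 3 genes at 1 FPKM were over 2-fold lower in lung, the direction of Egr1, beside 15.5% of all genes counted.

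Genes that act upstream were counted in the same way. Among 25 kinases and factors, 1 was over 2-fold higher in lung, beside 17.8% of all genes counted, 4 were over 2-fold lower, beside 15.5%, and 20 lay between, with a median log2 ratio of -0.46. Mapk3, which encodes the kinase ERK1, was 10.5 FPKM in spleen and 22.9 FPKM in lung. The kinases above it, Map2k1 (46.7 and 61.6 FPKM) and Map2k2 (44.3 and 56.9 FPKM), were within 2-fold. Crtc2, a CREB coactivator, was 32.2 and 12.1 FPKM. Map2k7 and Map3k1, kinases of the JNK cascade that activates c-Jun, were 2.25-fold and 2.24-fold lower in lung.

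Immediate early genes outside the AP-1 and Egr families were also split. Of 42, 41 reached 1 FPKM. Of these, 12 were over 2-fold higher in lung, beside 17.8% of all genes counted, and 4 over 2-fold lower, beside 15.5%. The median log2 ratio was 0.43. Cyr61, a matrix protein of stromal cells, was 0.106 FPKM in spleen and 12.0 FPKM in lung, the stress gene Ier3 was 2.41 and 45.1 FPKM, and the stress gene Gadd45b was 39.9 and 248 FPKM. On the lower side stood Dusp2, a phosphatase of MAP kinases (383 and 133 FPKM), Trib1 (21.3 and 9.99 FPKM), Myc (80.3 and 38.1 FPKM) and, named after its values were seen, Zfp36l2, an RNA-binding protein (171 and 81.4 FPKM).

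Because the lung was digested warm, 18 heat shock and metal response genes were counted too. Of these, 6 were over 2-fold higher in lung, beside 17.8% of all genes counted, and none over 2-fold lower, beside 15.5%. Their median log2 ratio was 0.54. Mt1, a metallothionein, was 17.9 FPKM (spleen) and 378 FPKM (lung), and Mt2 is listed at 0 in spleen and was 16.1 FPKM in lung. The inducible chaperone Hspa1a was 7.11 and 117 FPKM, although it shares reads with its near-identical copy Hspa1b. Others of the list had like levels in both tissues, namely Hspa5 (453 and 392 FPKM) and Hsp90aa1 (123 and 130 FPKM). The part of digestion in the ratios of Atf3 and Fosl2 was not tested.

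**Figure D4:**
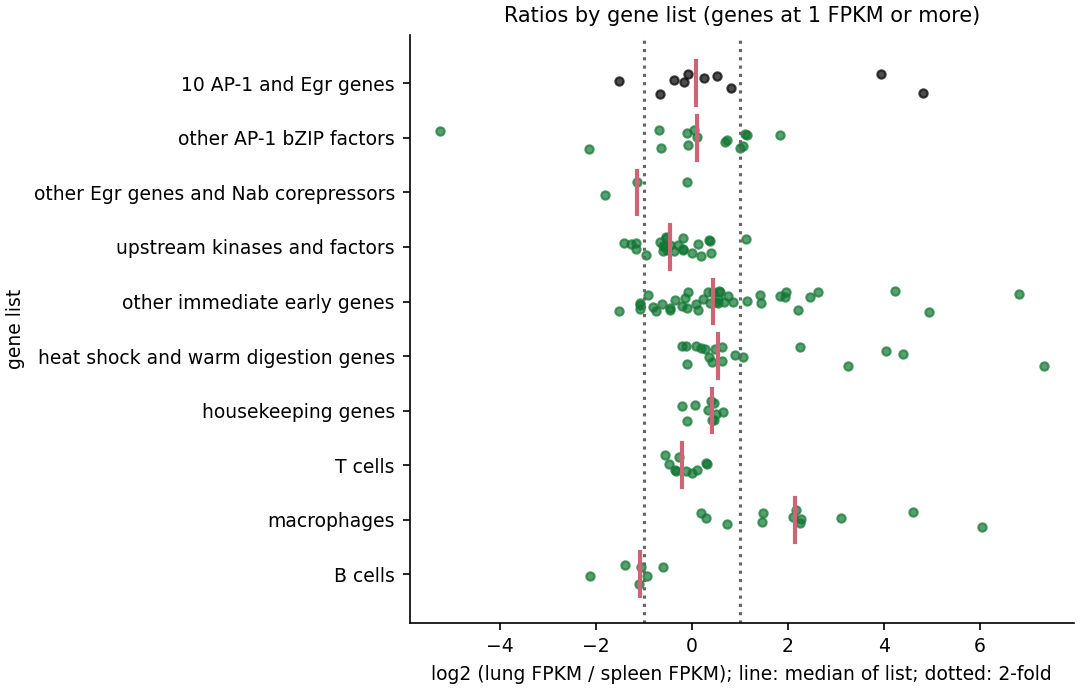
Log2 ratio of lung to spleen FPKM of each gene at 1 FPKM or more, for the 10 AP-1 and Egr genes and for lists of related genes and cell markers, with a vertical bar at each median and dotted lines at 2-fold. The 10 genes have a median of 0.09, macrophage markers 2.14, T cell markers -0.20 and B cell markers -1.09.

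Known AP-1 targets were mostly higher in lung, and 8 of 10 reached 1 FPKM. Of these 8, 6 were over 2-fold higher, beside 17.8% of all genes counted, and 1 over 2-fold lower, beside 15.5%. The median log2 ratio was 1.45. Timp1, an inhibitor of matrix proteases, is listed at 0 in spleen and was 62.0 FPKM in lung, and Plaur, the urokinase receptor, was 17.5 and 163 FPKM. Mmp9 was 4.75 and 13.7 FPKM, Vim 161 and 416 FPKM, and Cd44 35.0 and 81.1 FPKM. Hmox1, a heme-degrading enzyme, was 91.0 and 42.5 FPKM. Several of these genes are also used by macrophages and stromal cells, whose markers were higher in the lung library.

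Next, 9 genes known as targets of Egr2 and Egr3 in T cells were counted. Of these, 2 were over 2-fold higher in lung, beside 17.8% of all genes counted, and 2 over 2-fold lower, beside 15.5%. The median log2 ratio was -0.03. Cdkn1a, a cell cycle inhibitor, was 3.29 FPKM (spleen) and 70.7 FPKM (lung), and Rnf128, the anergy ligase GRAIL, was 3.26 and 27.8 FPKM. Tnfrsf9, the costimulatory receptor 4-1BB, was 102 and 180 FPKM. Fasl (15.4 and 15.1 FPKM), Cdkn1b (14.6 and 11.7 FPKM) and the ubiquitin ligase gene Cblb (21.5 and 12.0 FPKM) were lower in lung by less than 2-fold. The 2 genes over 2-fold lower, named after their values were seen, were at low levels. Lag3 was 4.62 and 1.04 FPKM, and Nrgn was 1.60 FPKM in spleen and is listed at 0 in lung.

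Of the other cell markers, the 10 T cell genes were all within 2-fold and gave a sum of 4576 FPKM (spleen) and 4375 FPKM (lung). The 5 Treg genes summed to 841 and 1663 FPKM, with 3 higher and 2 lower in lung. Of the 5, 2 were over 2-fold higher, beside 17.8% of all genes counted. Fibroblast markers summed to 0.290 and 47.2 FPKM, epithelial markers to 12.8 and 3125 FPKM and neutrophil markers to 428 and 1200 FPKM. Scgb1a1 alone gave 3021 FPKM of the epithelial sum in lung. Of the 6 epithelial genes, 4 were over 2-fold higher in lung, beside 17.8% of all genes counted. The other 2, Epcam (8.75 and 1.79 FPKM) and Ager (2.27 and 1.74 FPKM), were lower. B cell markers summed to 265 and 131 FPKM and CD8 T and NK cell markers to 31.2 and 92.4 FPKM. Endothelial markers summed to 55.4 and 40.6 FPKM, mostly Pecam1 (54.8 and 31.7 FPKM), which leukocytes also use. However, 2 of the 3 endothelial genes at 1 FPKM were over 2-fold higher in lung, beside 17.8% of all genes counted. Their median log2 ratio was 2.26. Dendritic cell markers summed to 7.42 and 15.8 FPKM, with 2 genes higher and 2 lower in lung, among them Zbtb46 (1.70 and 11.5 FPKM) and Flt3 (1.43 and 0.172 FPKM), both named after their values were seen, and a median log2 ratio of -0.03. Listed at 0 in lung were the granule genes Mpo and Elane of immature neutrophils, the NK cell receptor Ncr1 and the endothelial Kdr, and at 0 in spleen the fibroblast genes Col3a1, Pdgfra and Lum, the epithelial Sftpc and the endothelial Cdh5. Their part in the levels of Fosl2, Atf3 and Egr1 was not tested.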

How the data were processed

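Tregs were sorted as GFP+CD4+ cells from spleen and lung of BLM-treated FDG mice, and libraries were made with a SMART-Seq HT kit, which gives cDNA of whole transcripts without a strand mark. Per the submitters' processing notes and the study's methods, the reads, single-end and 75 bases long, were aligned by the authors against mm10 (TopHat2 2.1.1 and Bowtie2 2.2.8, with SAMtools 0.1.18), and FPKM per gene were deposited as Cuffdiff 2.2.1 gave them. The annotation and the scaling between libraries are not given in the sources used here.

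Ratios of lung to spleen were taken after values under 0.1 FPKM were set to 0.1. Genes that reached 1 FPKM in either library were counted, and called when past 2-fold or 20-fold. With 1 library per tissue no test across samples was made.

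Reads were estimated from GENCODE M21 transcript lengths (GRCm38), found for 23016 symbols (94.5%), with a fragment length of 200 and SD of 80, assumed as the default of Cuffdiff. The value of 1 read at 1 kb was 0.0964 FPKM in spleen and 0.0849 in lung. It was taken as the product of FPKM and effective length most often shared among genes of at least 1500 nt. That product was shared by 210 and 127 genes, and its standing for 1 read was assumed. Among low genes, 72.9% and 75.0% of the estimates lay within 0.1 of a whole number. The read numbers are therefore approximate, no count model was run on them, and intervals were exact Poisson for levels and exact binomial for ratios. Simulated Poisson counts were used to test the value of 1 read and the recovery of known changes in genes above a set level. The intervals and changes at low levels were not tested in this way.

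The 10 genes, the 8 lists of related genes and the 10 lists of cell markers were chosen with earlier results of these data known. Beside the 10 genes, those named were, per list of related genes, the 3 highest and 3 lowest ratios at 10 FPKM or more, up to 2 of the highest of a cell list with its genes at 0, Foxp3, Cd4, Cd3e and Actb, and the 3 nearest genes in level to the genes with the highest lung level and the highest ratio. A gene that this rule would name is not reported here. Letters were sought on both strands of RefSeq promoters (GRCm38.p6). Protein sequences were not analysed here. Alternatives were a floor or a pseudocount of 1 FPKM, TPM, scaling by the median ratio, by upper quartiles or by T cell genes, and other fold limits. Scripts ran in Python 3.11.15 with pandas 2.3.3, scipy 1.17.1, numpy 2.4.6 and, for figures, matplotlib 3.10.9.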

Additional observations from a re-analysis of the deposited data

How the results depend on the processing

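Rescaling shifted every log2 ratio by -0.43 (TPM), -0.02 (median ratio of 1), -0.01 (upper quartiles) or 0.20 (T cell genes at a median ratio of 1). The median log2 ratio of the 10 genes was -0.345 in TPM, 0.0708 at a median ratio of 1 and 0.287 by T cell genes, shifts that follow from the scaling itself. Genes over 2-fold lower in lung numbered 2 in TPM, where Jun joined Egr1 (log2 ratio of -1.11), beside 25.9% of all genes counted. At limits of 1.5-fold, 3-fold and 20-fold the lower side held 2, 0 and 0, beside 25.4%, 9.05% and 2.35%. Over 20-fold higher was 1 gene, beside 3.27%. By T cell genes, Fosb was 2.03-fold higher and joined Fosl2 and Atf3 past 2-fold, beside 21.6% of all genes counted. Over 8 settings Fosl2 was 10.6-fold to 32.5-fold higher, Atf3 11.5-fold to 17.7-fold higher and Egr1 2.49-fold to 3.86-fold lower. Fos, Fosb, Jun and Junb kept their direction in these settings too, whereas Egr2 turned under TPM and Jund and Ier2 under T cell genes. The variation between mice is unknown, since 1 library per tissue leaves none when it is left out. No paired analysis was possible because each tissue has 1 library.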

Other observations

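The genes nearest to Junb and Fosl2 in level were sought over the 2 libraries, by distance in log2 FPKM, as a description. Nearest to Junb were Snrpg (652 FPKM in spleen and 962 FPKM in lung), which encodes a core protein of the spliceosome, Oaz1-ps (649 and 918 FPKM) and Rps7, a ribosomal protein gene (722 and 924 FPKM). Nearest to Fosl2 were Plvap, a gene of fenestrated endothelium (0.534 and 13.2 FPKM), Fkbp1b (0.500 and 17.7 FPKM) and Cyb561 (0.639 and 13.3 FPKM). The distances were 0.04 to 0.12 for Junb and 0.23 to 0.31 for Fosl2.

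Of 10 housekeeping genes, all were within 2-fold, with a median log2 ratio of 0.41. Gapdh was 427 FPKM in spleen and 668 FPKM in lung, Ppia was 3401 and 4784 FPKM, and Hprt was 139 and 192 FPKM. Actb was 1325 and 1242 FPKM, Polr2a 26.6 and 23.0 FPKM and Ywhaz 354 and 373 FPKM.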
